A study of Homo sapiens with 5 samples.

Results

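Replication-dependent histone genes were followed through 5 peak lists of IRF3 and Smad3 binding in BT549, an established basal-like breast cancer cell line. The genes were taken by symbol from RefSeq (GRCh38.p14), as the protein-coding genes named H1-, H2AC, H2BC, H3C or H4C with a number, and 74 of 20037 protein-coding genes met this rule. They comprised 10 H1 genes, 17 H2A genes, 19 H2B genes, 13 H3 genes and 15 H4 genes. A gene counted as having a peak when a peak lay within 1 kb of its annotated start or end, or inside it. The name does not hold for all of them. H1-10 encodes a linker histone made outside S phase, and H1-6, H1-7, H1-8, H2AC1 and H2BC1 are genes of the germ line. They were kept, since the rule takes them.

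All cells carried a lentiviral vector stably, encoding either constitutively active Smad3 (caSmad3) or the control HA. The IRF3 libraries came from caSmad3 cells and from HA cells, both transfected with polyI:C, a synthetic double-stranded RNA that activates IRF3, and neither received TGF-beta. The Smad3 libraries came from caSmad3 cells transfected with polyI:C without TGF-beta, from HA cells transfected with polyI:C and given TGF-beta (1 ng/ml for 1.5 h), and from mock-transfected HA cells given the same TGF-beta. They are called here IRF3 caSmad3, IRF3 HA, Smad3 caSmad3, Smad3 HA polyI:C and Smad3 HA mock. Whether each line was a pool or a clone is not given in the sources used here. Each group is 1 library, so differences between conditions carry no test, and in the comparison of Smad3 caSmad3 with Smad3 HA polyI:C the active Smad3 and the lack of TGF-beta cannot be told apart. The lists held 8067 peaks in IRF3 caSmad3, 4125 in IRF3 HA, 6041 in Smad3 caSmad3, 786 in Smad3 HA polyI:C and 353 in Smad3 HA mock. They give positions only, so read depth is unknown, and a gene with no listed peak is not a gene shown to be unbound. Transcription was not measured, and the peaks were not set against an input or IgG control here.

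Most histone genes are transcribed only while DNA is replicated, from short genes without introns whose mRNAs end in a stem-loop in place of a poly(A) tail. H2A, H2B, H3 and H4 form the core of the nucleosome and H1 binds the linker DNA. The genes lie in clusters, many as divergent pairs of an H2A and an H2B gene that share the DNA between their starts, and a nuclear compartment called the histone locus body, built around NPAT, gathers on them in cycling cells.

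The DNA before 5 starts is shown because it carries the contrasts described further on. H4C8 was the chromosome 6 gene with peaks in all 5 lists, H2AC20 stands for the divergent H2A and H2B pairs, H4C14 and H4C15 have the same 300 promoter bases in RefSeq, and H4C9 lies inside a cluster with no peak in any list. Each line gives the 200 bases before the start, 5′ to 3′ on the strand of the gene (RefSeq, GRCh38.p14): chr6:26285535-26285734, minus strand, for H4C8; chr1:149886718-149886917, plus strand, for H2AC20; chr1:149832457-149832656, plus strand, for H4C14; chr1:149861160-149861359, minus strand, for H4C15; and chr6:27139082-27139281, plus strand, for H4C9. Capitals mark matches, on either strand, to 4 motifs that are spelled out with their counts further on, the TATA box, the CCAAT box, the GC box and the octamer. The H4C8 stretch holds none of them.
H4C8: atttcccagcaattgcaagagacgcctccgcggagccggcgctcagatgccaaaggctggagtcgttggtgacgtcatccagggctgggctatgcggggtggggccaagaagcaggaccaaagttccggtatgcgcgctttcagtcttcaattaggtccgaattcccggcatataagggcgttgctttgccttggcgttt
H2AC20: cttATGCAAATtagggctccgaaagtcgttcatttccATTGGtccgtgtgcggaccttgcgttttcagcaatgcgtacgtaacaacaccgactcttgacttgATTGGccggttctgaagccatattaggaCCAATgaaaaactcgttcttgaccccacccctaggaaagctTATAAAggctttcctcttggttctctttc
H4C14: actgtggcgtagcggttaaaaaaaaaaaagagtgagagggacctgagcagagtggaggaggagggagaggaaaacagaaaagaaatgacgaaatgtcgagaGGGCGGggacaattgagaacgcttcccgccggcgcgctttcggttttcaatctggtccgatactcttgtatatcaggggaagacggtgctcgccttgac
H4C15: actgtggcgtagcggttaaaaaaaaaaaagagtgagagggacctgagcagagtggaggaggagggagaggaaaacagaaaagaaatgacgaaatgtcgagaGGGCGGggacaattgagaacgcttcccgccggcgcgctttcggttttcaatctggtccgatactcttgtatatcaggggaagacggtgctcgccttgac
H4C9: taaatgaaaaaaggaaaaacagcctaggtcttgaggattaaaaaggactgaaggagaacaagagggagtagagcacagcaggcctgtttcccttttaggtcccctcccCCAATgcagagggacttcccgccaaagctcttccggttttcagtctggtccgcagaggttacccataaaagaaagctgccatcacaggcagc

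IRF3 peaks were listed at most histone genes in both IRF3 libraries, and Smad3 peaks at most of them in caSmad3 cells. Of the 74 genes, 65 had a peak in IRF3 caSmad3 (87.8%, 95% Clopper-Pearson interval 78.2 to 94.3), against 34.3% of all protein-coding genes. In IRF3 HA 64 had one (86.5%, 76.5 to 93.3), against 18.9% of all protein-coding genes. Smad3 caSmad3 had 57 (77.0%, 65.8 to 86.0), against 15.6% of all protein-coding genes. Smad3 HA polyI:C had 32 (43.2%, 31.8 to 55.3), against 1.85%, and Smad3 HA mock had 7 (9.46%, 3.89 to 18.5), against 0.644%. The intervals cover counting error only and take genes as independent, whereas neighbours often share a peak: the counts rest on 68 distinct peaks in IRF3 caSmad3, 62 in IRF3 HA, 105 in Smad3 caSmad3, 37 in Smad3 HA polyI:C and 6 in Smad3 HA mock. These made up 0.843% of all peaks in IRF3 caSmad3, 1.50% in IRF3 HA, 1.74% in Smad3 caSmad3, 4.71% in Smad3 HA polyI:C and 1.70% in Smad3 HA mock.

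The genes are short, with a median length of 495.5 bases, so other short genes are set beside them. Of 1873 other protein-coding genes of 3 kb or less, 15.5% had a peak in IRF3 caSmad3, 8.81% in IRF3 HA, 6.94% in Smad3 caSmad3, 0.801% in Smad3 HA polyI:C and 0.320% in Smad3 HA mock. Other protein-coding genes between the first and the last histone gene of chromosome 6 had few. Of these 19 genes, 2 had a peak in IRF3 caSmad3 (BTN2A1 and ZNF322), 1 in IRF3 HA (ZNF322) and 0 in each Smad3 list. HFE, the iron regulator whose gene lies among the histone genes, had none in any list. Neither set was matched to the histone genes for transcription, and what part length or position has in the shares was not tested.

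**Figure D1:**
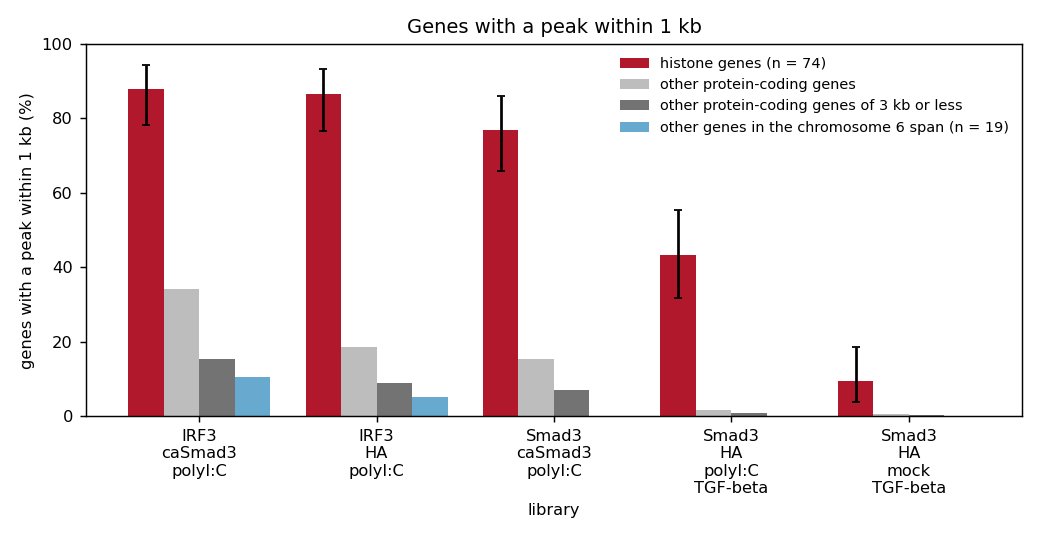
Share of genes with a peak within 1 kb (%, vertical axis) in each of the 5 libraries, for the 74 histone genes (red, bars with 95% Clopper-Pearson intervals), other protein-coding genes (light grey), those of 3 kb or less (dark grey) and the 19 other genes in the chromosome 6 span (blue, at 0 in the Smad3 libraries). The histone bar is the tallest in each library, from 87.8% in IRF3 caSmad3 to 9.46% in Smad3 HA mock.

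The 5 sets of genes were nested without exception. All 7 genes of Smad3 HA mock were among the 32 of Smad3 HA polyI:C, all 32 among the 57 of Smad3 caSmad3, all 57 among the 64 of IRF3 HA, and all 64 among the 65 of IRF3 caSmad3. Much of this order held at other protein-coding genes. Of those with a Smad3 HA mock peak, 65.6% had one in Smad3 HA polyI:C. Of those in Smad3 HA polyI:C, 92.0% were in Smad3 caSmad3, and of those in IRF3 HA, 92.8% were in IRF3 caSmad3. For the step from Smad3 caSmad3 to IRF3 HA no such share is given here. H4C14, H3C14, H2AC18, H2BC21, H2AC20, H2AC21 and H4C8 were in all 5 lists. A further 25 genes were in every list but Smad3 HA mock, and another 25 in both IRF3 lists and Smad3 caSmad3. H2BC6, H4C4, H3C8, H4C13, H2BC12L and H1-10 were in both IRF3 lists and no Smad3 list. H2BC10 was in IRF3 caSmad3 only, with a peak of 348 bases, and H1-6, H1-7, H1-8, H2AC1, H2BC1, H3C6, H4C6, H4C7 and H4C9 were in none.

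The germ-line genes were all among those with no peak. Of all protein-coding genes, 34.3% had one in IRF3 caSmad3, 18.9% in IRF3 HA and 15.6% in Smad3 caSmad3, so a count of 0 of 5 says little about them. H2AC1 and H2BC1, the testis genes at the far end of the chromosome 6 cluster, had no IRF3 caSmad3 peak closer than 266216 and 265433 bases. H1-8, the oocyte linker histone, was 102592 bases from its nearest IRF3 caSmad3 peak and H1-7 was 50603. H1-6 lies among genes with peaks and was 3117 bases from the nearest peak of IRF3 caSmad3 and 3050 from that of IRF3 HA. H1-10 had a peak of 382 bases in IRF3 caSmad3 and one of 312 in IRF3 HA, both overlapping an end of the gene, and no Smad3 peak.

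The other 4 genes with no peak, H3C6, H4C6, H4C7 and H4C9, lie between histone genes that had them. H4C9 was 5501 bases from the nearest IRF3 caSmad3 peak, 5767 from IRF3 HA and 5375 from Smad3 caSmad3. It lies inside the annotated span of H2BC12, whose peaks were at the far end of that span, next to H2AC12. H4C7 was 3180 bases from the nearest peak in IRF3 caSmad3, 3168 in IRF3 HA and 2886 in Smad3 caSmad3. H4C6 was 5299 bases away in IRF3 caSmad3, 5296 in IRF3 HA and 5458 in Smad3 caSmad3, and H3C6 was 5955, 6409 and 6199 bases away in these libraries.

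**Figure D2:**
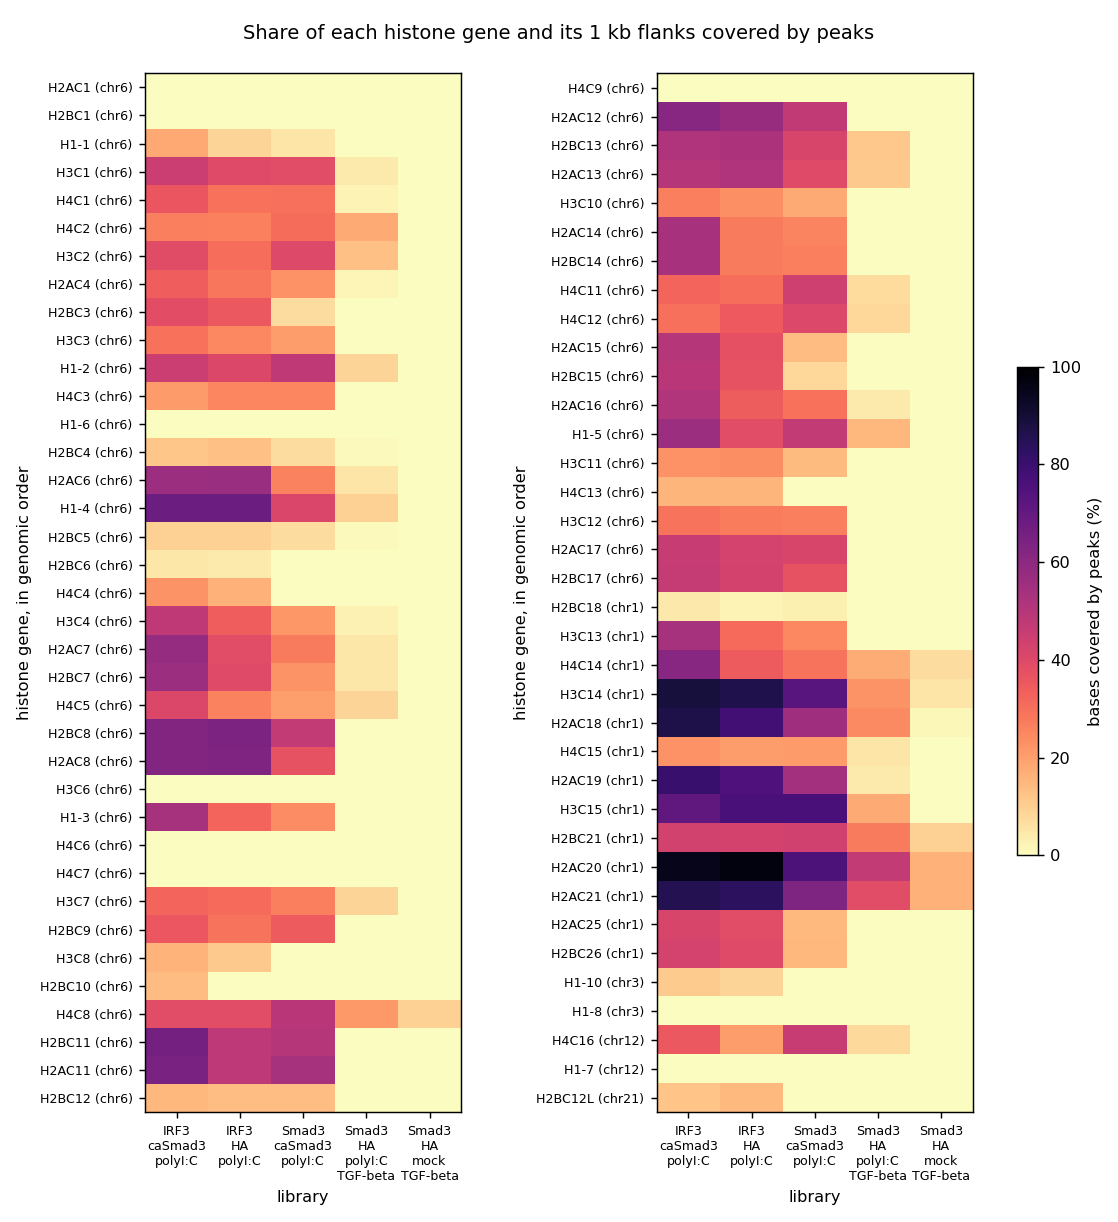
Share of histone genes and their 1 kb flanks that lay in peaks (%, colour scale), with the genes reported by name down the page in genomic order (chromosome 6 first, then chromosome 1 and the others) and the 5 libraries across. Colour is densest at H3C14, H2AC18, H2AC19, H3C15, H2AC20 and H2AC21 on chromosome 1, thins from the IRF3 libraries on the left to Smad3 HA mock on the right, and is missing in all 5 columns for 9 genes.

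By position, all histone genes on chromosome 1 had IRF3 peaks and most also had Smad3 peaks. Of 13 genes there, 13 had a peak in IRF3 caSmad3, 13 in IRF3 HA, 13 in Smad3 caSmad3, 9 in Smad3 HA polyI:C and 6 in Smad3 HA mock. Of the 55 genes on chromosome 6, 48 had one in IRF3 caSmad3, 47 in IRF3 HA, 43 in Smad3 caSmad3, 22 in Smad3 HA polyI:C and 1, H4C8, in Smad3 HA mock. The 6 genes elsewhere gave 4 in IRF3 caSmad3, 4 in IRF3 HA, 1 in Smad3 caSmad3, 1 in Smad3 HA polyI:C and 0 in Smad3 HA mock, and the gene with Smad3 peaks was H4C16 on chromosome 12. Within chromosome 1, the 4 genes without a Smad3 HA polyI:C peak were H2AC25 and H2BC26, which lie far from the main cluster (228457364 to 228458558), and H2BC18 and H3C13 at the lower end of the main cluster (149782689 to 149887965). Of the 13, H4C14, H4C15, H3C14, H3C15, H2AC18 and H2AC19 are near-identical copies, described below with the promoters.

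By histone type, 16 of 17 H2A genes had a peak in each of IRF3 caSmad3, IRF3 HA and Smad3 caSmad3. Their count was 9 in Smad3 HA polyI:C and 3 in Smad3 HA mock. H2B genes gave 18 of 19 in IRF3 caSmad3, 17 in IRF3 HA, 15 in Smad3 caSmad3, 5 in Smad3 HA polyI:C and 1 in Smad3 HA mock. H3 genes gave 12 of 13 in IRF3 caSmad3, 12 in IRF3 HA, 11 in Smad3 caSmad3, 6 in Smad3 HA polyI:C and 1 in Smad3 HA mock. H4 genes gave 12 of 15 in IRF3 caSmad3, 12 in IRF3 HA, 10 in Smad3 caSmad3, 9 in Smad3 HA polyI:C and 2 in Smad3 HA mock. H1 genes gave 7 of 10 in IRF3 caSmad3, 7 in IRF3 HA, 5 in Smad3 caSmad3, 3 in Smad3 HA polyI:C and 0 in Smad3 HA mock. The 3 H1 genes with a Smad3 HA polyI:C peak were H1-2, H1-4 and H1-5.

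IRF3 peaks at histone genes were wide, and included the widest of their lists. Their median width was 648.5 bases in IRF3 caSmad3 and 601 in IRF3 HA, against 214 and 183 bases for the other peaks of those lists. In Smad3 caSmad3 the medians were 256 at histone genes and 177 elsewhere, in Smad3 HA polyI:C 177 and 154, and in Smad3 HA mock 133 and 165. Histone genes held 14 of the 20 widest peaks of IRF3 caSmad3, 10 of IRF3 HA, 3 of Smad3 caSmad3, 0 of Smad3 HA polyI:C and 0 of Smad3 HA mock. Peaks of 500 bases or more made up 66.2% of those at histone genes and 7.09% of the others in IRF3 caSmad3, and 62.9% and 4.33% in IRF3 HA. In the Smad3 lists these shares were 23.8% at histone genes and 5.24% elsewhere in Smad3 caSmad3, 2.70% and 8.14% in Smad3 HA polyI:C, and 0% and 12.4% in Smad3 HA mock.

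**Figure D3:**
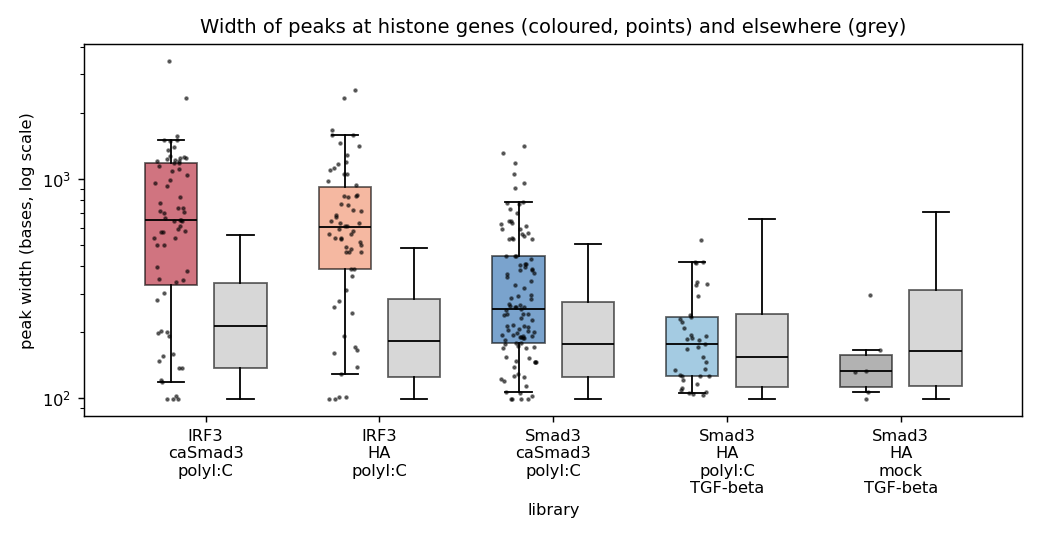
Peak width (bases, log scale) at histone genes (coloured boxes, each point a peak) and elsewhere (grey boxes, no points) in each library. Boxes span the quartiles with the median as a line, and whiskers run to the 5th and 95th percentiles; the medians at histone genes are 648.5 bases in IRF3 caSmad3, 601 in IRF3 HA, 256 in Smad3 caSmad3, 177 in Smad3 HA polyI:C and 133 in Smad3 HA mock.

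The widest peak of IRF3 caSmad3 had 3449 bases (chromosome 1, 149839970 to 149843418) and the widest of IRF3 HA had 2545 (149840485 to 149843029), and both spanned the whole of H3C14 and H2AC18, an H3 and an H2A gene. Smad3 caSmad3 listed 5 separate peaks over this stretch, of which the widest had 906 bases. Next in width in both IRF3 lists was a peak at H1-4 and the neighbouring H2BC5, with 2348 bases in IRF3 caSmad3 (chromosome 6, 26156227 to 26158574) and 2349 in IRF3 HA (26156227 to 26158575). This peak began at the same base in both lists. H2BC8 and H2AC8 had a peak of 1565 bases in IRF3 caSmad3 and 1591 in IRF3 HA, H2BC12 and H2AC12 one of 1504 in IRF3 caSmad3 and 1412 in IRF3 HA, and H2BC4 and H2AC6 one of 1501 in IRF3 caSmad3 and 1678 in IRF3 HA. A peak at H2BC21 and H2AC20 had 1404 bases in IRF3 caSmad3 and 1580 in IRF3 HA and ended before H2AC21, which lay whole in a separate peak of 1201 bases in IRF3 caSmad3 and 1168 in IRF3 HA.

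In Smad3 caSmad3 the widest histone peak had 1408 bases (chromosome 1, 149852401 to 149853808) and spanned H3C15. It was followed by peaks of 1310 bases over H1-2, which encodes a linker histone found in most cell types, 1184 over H2AC19, 1051 over H4C11, 962 over H4C12 and 906 at H3C14. H1-2, H4C11 and H4C12 lay whole within these peaks. At H1-2, 1310 bases of gene and flanks were covered in Smad3 caSmad3, against 1235 in IRF3 caSmad3 and 1119 in IRF3 HA. At H4C11 the values were 1051 in Smad3 caSmad3, 773 in IRF3 caSmad3 and 724 in IRF3 HA, and at H4C12 they were 962 in Smad3 caSmad3, 713 in IRF3 caSmad3 and 839 in IRF3 HA. At these 3 genes, named for their wide Smad3 caSmad3 peaks, Smad3 caSmad3 covered more bases than either IRF3 list. Among all histone genes, Smad3 caSmad3 covered more bases than IRF3 caSmad3 at 10 and fewer at 55, with 9 equal.

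The body of a histone gene was mostly inside IRF3 peaks. The median share of a gene covered was 95% in IRF3 caSmad3, 84.0% in IRF3 HA, 46.0% in Smad3 caSmad3, 0% in Smad3 HA polyI:C and 0% in Smad3 HA mock. The whole gene was covered at 31 genes in IRF3 caSmad3, 22 in IRF3 HA, 11 in Smad3 caSmad3 and 0 in each of Smad3 HA polyI:C and Smad3 HA mock. H2BC4, H2BC5, H2BC12, H2BC18, H3C6, H4C15 and H1-8 are annotated over more than 3 kb, so that a peak of a given width covers a smaller share of them. In this annotation H4C15 spans H2AC19 and H3C15, and H3C4 spans H2AC7, so the peaks of the longer gene include those of the gene inside it.

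Relative to the start of transcription, IRF3 and Smad3 peaks were placed differently. RefSeq promoters gave 70 starts of 67 of the genes. The base at the start lay in a peak at 56 of the 70 in IRF3 caSmad3, 54 in IRF3 HA, 25 in Smad3 caSmad3, 7 in Smad3 HA polyI:C and 1 in Smad3 HA mock. Cover was highest 50 bases into the gene in both IRF3 lists (57 starts in IRF3 caSmad3 and 55 in IRF3 HA) and 250 bases into it in Smad3 caSmad3 (45 starts) and Smad3 HA polyI:C (18 starts). At other protein-coding genes the highest cover was also 50 bases in for IRF3 (17.2% of 21972 starts in IRF3 caSmad3 and 8.26% in IRF3 HA). For Smad3 it was there 50 bases before the start (3.75% in Smad3 caSmad3 and 0.237% in Smad3 HA polyI:C).

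**Figure D4:**
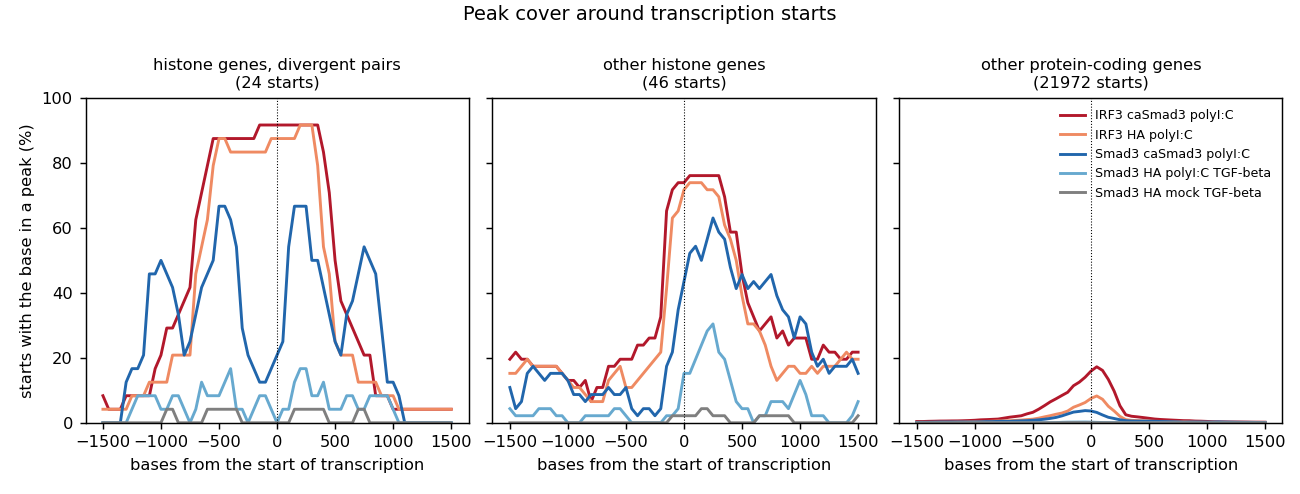
Share of starts whose base at each distance lay in a peak (%, vertical axis) against the distance from the start of transcription, with 1 line per library. Distances are in bases, positive in the direction of transcription. Panels show histone genes in close divergent pairs (left), other histone genes (middle) and other protein-coding genes (right). In the left panel the IRF3 lines stay high across the start while the Smad3 caSmad3 line dips at the start and is high on either side, where the side before the start lies over the partner gene; in the middle panel the Smad3 caSmad3 line is highest 250 bases into the gene.

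The factors differed in their cover of the stretches around the start. In the 250 bases before it, at least 50% of the stretch was covered at 53 starts in IRF3 caSmad3, 43 in IRF3 HA, 14 in Smad3 caSmad3, 3 in Smad3 HA polyI:C and 0 in Smad3 HA mock. Over the first 250 bases of the gene the counts were 57 in IRF3 caSmad3, 55 in IRF3 HA, 41 in Smad3 caSmad3, 13 in Smad3 HA polyI:C and 3 in Smad3 HA mock. From 500 to 1000 bases past the start they were 18 in IRF3 caSmad3, 13 in IRF3 HA, 27 in Smad3 caSmad3, 2 in Smad3 HA polyI:C and 1 in Smad3 HA mock. With a median gene length of 495.5 bases, this stretch lies mostly beyond the end of most of these genes, in flank or a neighbouring gene. In caSmad3 cells the stretch before the start was covered by both factors at 14 starts, by Smad3 only at 0 and by IRF3 only at 39. From 500 to 1000 bases past the start it was both at 15 starts, Smad3 only at 12 and IRF3 only at 3. In HA cells given polyI:C, the stretch before the start was covered by both at 3 starts, by Smad3 only at 0 and by IRF3 only at 40. The first 250 bases were covered there by both at 13 starts, by Smad3 only at 0 and by IRF3 only at 42, but the Smad3 library of these cells had TGF-beta and the IRF3 library had not.

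The genes in close divergent pairs hold 24 of the 70 starts, so their intervals repeat part of the counts above. Pairs were sought among the 67 genes with a promoter entry giving the strand, so H2AC12, next to H2BC12, could not be placed in one. In 11 intervals of 193 to 247 bases, an H2A and an H2B gene on opposite strands start away from each other, and in 1 of them H3C4 shares the start of H2AC7. IRF3 peaks covered the whole interval at 10 in IRF3 caSmad3 and at 9 in IRF3 HA, and no Smad3 list covered a whole interval. The median peak at histone genes, 177 bases in Smad3 HA polyI:C and 133 in Smad3 HA mock, is narrower than any of these intervals. The interval left out by IRF3 was the one between the testis genes H2AC1 and H2BC1, and the one covered in part was between H2AC14 and H2BC14, with 23.8% in IRF3 HA. Smad3 caSmad3 touched 4 of the 11, with 171 of 235 bases between H2BC21 and H2AC20, 173 of 247 between H2BC11 and H2AC11, 16 of 243 between H2BC13 and H2AC13, and 40 of 239 between H2AC17 and H2BC17. Yet at 10 of the 11 pairs Smad3 caSmad3 had a peak within 1 kb of the gene with the higher coordinates, against 4 in Smad3 HA polyI:C and 1 in Smad3 HA mock. Smad3 HA polyI:C touched 1 interval, with 168 of 235 bases between H2BC21 and H2AC20, and Smad3 HA mock touched 0.

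**Figure D5:**
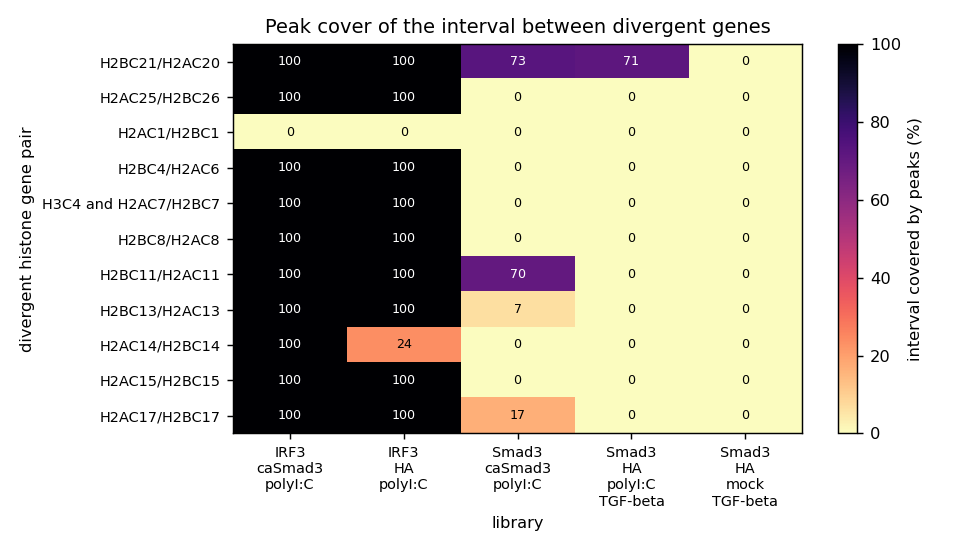
Share of the interval between the starts of divergent histone genes that lay in peaks (%, colour and number), with the 11 pairs down the page and the 5 libraries across. IRF3 columns read 100 at all pairs shown but H2AC1/H2BC1 and, in IRF3 HA, H2AC14/H2BC14 (24). Among the pairs shown, Smad3 caSmad3 passes 50 only at H2BC21/H2AC20 (73) and H2BC11/H2AC11 (70).

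In the promoters shown above, IRF3 caSmad3 covered all 200 bases of H4C8, H2AC20, H4C14 and H4C15, and IRF3 HA covered 178 of H4C8 and 200 of each of the other 3. Smad3 caSmad3 covered 183 bases of H4C8, 136 of H2AC20, 172 of H4C14 and 160 of H4C15. Smad3 HA polyI:C covered 159 bases of H4C8, 168 of H2AC20, 30 of H4C14 and 36 of H4C15, and Smad3 HA mock 99 of H4C8 and 0 of the others. The H4C9 promoter had 0 covered bases in all 5 libraries. H4C14 and H4C15, with the same bases, had close values, although a Smad3 HA mock peak was listed at H4C14 only. RefSeq promoters were also the same, over 296 and 299 bases, for H3C14 and H3C15 and for H2AC18 and H2AC19, and differed at 5 of 300 bases between H4C11 and H4C12. How reads that fit both copies were placed is not given in the sources used here, so values of one copy may include reads of the other.

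The comparison of IRF3 between caSmad3 and HA cells asks where IRF3 lies when active Smad3 is present. At histone genes the sites were largely the same: 64 genes had a peak in both lists, where 17.6% of all protein-coding genes did. Of the 68 IRF3 caSmad3 peaks at histone genes, 54 overlapped an IRF3 HA peak by at least 1 base (79.4%), against 40.5% of the other IRF3 caSmad3 peaks. Of the 62 IRF3 HA peaks, 60 overlapped one of IRF3 caSmad3 (96.8%, 95% Clopper-Pearson interval 88.8 to 99.6), against 82.6% of the other IRF3 HA peaks. More bases of gene and flanks were covered in IRF3 caSmad3 at 48 genes and in IRF3 HA at 15, with 11 equal, and the peaks together spanned 52131 bases in IRF3 caSmad3 and 44192 in IRF3 HA. The IRF3 caSmad3 list is also the longer, and what part list length has in this was not tested.

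In the comparison of Smad3 between caSmad3 cells and HA cells given polyI:C, 25 histone genes had a peak in caSmad3 cells only. Of the 57 histone genes with a Smad3 caSmad3 peak, 56.1% also had one in Smad3 HA polyI:C, against 10.2% of other protein-coding genes. A peak in caSmad3 cells only was thus less common at histone genes than elsewhere. The lists held 6041 and 786 peaks, and what part list length has in this was not tested. All 32 genes of Smad3 HA polyI:C had a peak in Smad3 caSmad3 too, where 1.72% of all protein-coding genes had a peak in both. All 37 Smad3 HA polyI:C peaks at histone genes overlapped one of Smad3 caSmad3 (100%, 90.5 to 100), against 85.7% of the other Smad3 HA polyI:C peaks. With an overlap of 50% of both peaks, 11 of the 37 did so, and the share of the other peaks under this rule is not given here. By 1 base or more, 31 of the 105 Smad3 caSmad3 peaks overlapped one of Smad3 HA polyI:C (29.5%), against 10.4% of the others. The 25 genes with a Smad3 peak in caSmad3 cells and none in either HA library were H2BC18, H3C13, H2AC25, H2BC26, H1-1, H2BC3, H3C3, H4C3, H2BC8, H2AC8, H1-3, H2BC9, H2BC11, H2AC11, H2BC12, H2AC12, H3C10, H2AC14, H2BC14, H2AC15, H2BC15, H3C11, H3C12, H2AC17 and H2BC17. H2B genes make up 10 of them, and 15 of the 57 genes with a Smad3 caSmad3 peak. At H2AC11, 1336 bases of gene and flanks were covered in Smad3 caSmad3 and 0 in Smad3 HA polyI:C, and at H2BC12 the values were 1429 and 0.

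The comparison of Smad3 between polyI:C and mock transfection, both in HA cells given TGF-beta, shares the Smad3 HA polyI:C library with the one before. Both lists had a peak at 7 histone genes, where 0.434% of all protein-coding genes had one in both, and 25 had a peak in Smad3 HA polyI:C only. Of the 32 histone genes with a Smad3 HA polyI:C peak, 21.9% had a mock peak too, close to the 23.6% of other protein-coding genes. The absence of a mock peak was thus about as common at histone genes as elsewhere. All 6 Smad3 HA mock peaks overlapped one of Smad3 HA polyI:C, against 69.5% of the other Smad3 HA mock peaks. The other way round, 6 of the 37 Smad3 HA polyI:C peaks overlapped a mock peak (16.2%), against 31.0% of the other Smad3 HA polyI:C peaks. With an overlap of 50% of both peaks, 3 of the 6 mock peaks overlapped one of Smad3 HA polyI:C. The share of the other mock peaks under this rule is not given here. H2BC21, H2AC20 and H2AC21 shared 2 mock peaks, of 295 bases (chromosome 1, 149887024 to 149887318) and 107 bases (149887574 to 149887680). H4C14 had one of 166 bases (149832717 to 149832882), and H3C14 and H2AC18 shared one of 134 bases (149841119 to 149841252). H4C8 on chromosome 6 had one of 132 bases (26285284 to 26285415) and one of 99 bases (26285550 to 26285648). Without the 8 genes that have a near-identical copy, 4 of 66 had a Smad3 HA mock peak, against 24 in Smad3 HA polyI:C.

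At these genes the widest Smad3 HA polyI:C peaks were 416 bases at H4C14, 339 in H2AC18, with a further 231 and 193 between or over the edge of H3C14 and H2AC18, 419 over H2AC21 and 327 at H4C8. Among the 25 genes with no mock peak, the widest was 526 bases at H4C15 (chromosome 1, 149860670 to 149861195), over its start. H1-5 had one of 417 bases, H3C2 and H2AC4 shared one of 331, and H4C2 had one of 239. Widths of 177 to 224 bases were found at H4C11 (177), H4C16 (184), H4C12 (194), H4C5 (210) and H3C7 (224). H2BC13 and H2AC13 shared one of 154 bases, and H2BC4 and H2AC6 one of 135. H1-4 had one of 136 bases and shared another of 127 with H2BC5. H3C15 had one of 127 bases, H1-2 one of 128, and H3C4, H2AC7 and H2BC7 shared one of 121. H2AC19 had one of 107 bases, H3C1 and H4C1 shared one of 105, and H2AC16 had one of 104. Of the 32 genes with a Smad3 HA polyI:C peak, 9 were H4 genes, which make up 15 of the 74.

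Most Smad3 peaks at histone genes overlapped an IRF3 peak of cells with the same vector by 1 base or more. In caSmad3 cells 57 genes had peaks of both, where 11.1% of all protein-coding genes did, and 87 of the 105 Smad3 peaks overlapped an IRF3 peak (82.9%, 74.3 to 89.5), against 30.7% of the other Smad3 caSmad3 peaks. Of the 68 IRF3 peaks there, 56 overlapped a Smad3 peak (82.4%), against 22.3% of the other IRF3 caSmad3 peaks. Genes with IRF3 peaks only included H1-10, H2BC6, H4C4, H3C8, H2BC10, H4C13 and H2BC12L. Their widest IRF3 caSmad3 peaks ran from 121 bases at H2BC6 to 575 at H4C13, the last shared with H3C11. In HA cells given polyI:C 32 genes had peaks of both, where 1.04% of all protein-coding genes did, and 36 of the 37 Smad3 peaks overlapped an IRF3 peak (97.3%, 85.8 to 99.9), against 27.9% of the other Smad3 HA polyI:C peaks. The exception was a Smad3 peak of 186 bases near H4C2 (chromosome 6, 26026384 to 26026569). With an overlap of 50% of both peaks, which peaks of very unequal width cannot meet, 21 of the 105 Smad3 caSmad3 peaks and 3 of the 37 Smad3 HA polyI:C peaks overlapped an IRF3 peak. The share of the other Smad3 peaks under this rule is not given here, so the comparison with other peaks holds for an overlap of 1 base only. Overlap of peaks from separate libraries does not show that both proteins were on the same DNA molecule.

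The TATA box, the CCAAT box and the octamer were more common in the promoters of these genes than in all promoters, and the GC box was less common. Over 250 bases before to 50 after the start, read on both strands, the TATA box TATAAA was in 46 of 72 histone promoters in RefSeq (63.9%) and in 11.5% of all 35097 promoters. CCAAT was in 60 (83.3%) against 34.6%, in all H2A, H2B and H3 promoters and in 3 of 13 H4 promoters. The octamer ATTTGCAT, the site of POU2F1 (Oct-1), was in 27 (37.5%) against 1.77%, of which 15 were H2B and 11 H2A. The GC box GGGCGG was in 18 (25.0%) against 44.9%, of which 8 were H4. Motifs linked with the precipitated factors were less marked. The core of the interferon-stimulated response element, to which IRF proteins bind (GAAA, any 2 bases, GAAA), was in 5 (6.94%) against 3.58%, in H3C13, H2BC6, H2BC10, H2BC11 and H3C10. The palindromic Smad element GTCTAGAC was in 0 of 72 against 0.202%, and the Smad-related CAGACA in 19 (26.4%) against 16.9%, of which 9 were H4. TTTCCCGC, an E2F element, was in 1, H4C7, against 1.63%. None of these motifs contains another, and each match is a string in this window, not a bound site.

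Genes for the machinery that serves histone genes had peaks in the IRF3 lists, and in Smad3 caSmad3 at a share near that of all genes. Of 19 factors of the histone locus body and of histone mRNA processing, 15 had a peak in IRF3 caSmad3 (78.9%) and 8 in IRF3 HA (42.1%). Smad3 caSmad3 had 4 (21.1%), and Smad3 HA polyI:C and Smad3 HA mock had 0 each. Of all protein-coding genes, 34.3% had a peak in IRF3 caSmad3, 18.9% in IRF3 HA and 15.6% in Smad3 caSmad3. The shares were 1.85% in Smad3 HA polyI:C and 0.644% in Smad3 HA mock, at which a count of 0 of 19 says nothing about these genes. NPAT, the organiser of the histone locus body, had peaks of up to 264 bases in IRF3 caSmad3 and 99 in IRF3 HA. GON4L had 552 in IRF3 caSmad3, 274 in IRF3 HA and 406 in Smad3 caSmad3, and CDK2, the kinase that acts on NPAT, had 226 in IRF3 caSmad3, 99 in IRF3 HA and 301 in Smad3 caSmad3. ZNF473, which takes part in cutting histone mRNA precursors, had 256 in IRF3 caSmad3, 143 in IRF3 HA and 201 in Smad3 caSmad3, and E2F1, a driver of S-phase genes, had 109 in IRF3 caSmad3, none in IRF3 HA and 112 in Smad3 caSmad3. CCNE2, CPSF2, CSTF2 and POU2F1 had peaks in both IRF3 lists, and CASP8AP2, CPSF3, ERI1, HINFP, LSM10 and SYMPK in IRF3 caSmad3 only. SLBP, which binds the histone mRNA stem-loop, and LSM11, YY1 and CCNE1 had none in any list.

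Of 10 genes for replacement histones, which are made through the cell cycle, 7 had a peak in IRF3 caSmad3, 6 in IRF3 HA, 3 in Smad3 caSmad3 and 0 in the Smad3 HA lists. Of all protein-coding genes, 34.3% had one in IRF3 caSmad3, 18.9% in IRF3 HA, 15.6% in Smad3 caSmad3, 1.85% in Smad3 HA polyI:C and 0.644% in Smad3 HA mock. At those last 2 shares, a count of 0 in a list this short says nothing about the list. H3-3B, which encodes H3.3, had peaks of 427 bases in IRF3 caSmad3, 415 in IRF3 HA and 245 in Smad3 caSmad3. H2AZ1 had 470 in IRF3 caSmad3, 465 in IRF3 HA and 107 in Smad3 caSmad3, and H2AX, the variant phosphorylated at DNA breaks, had 401 in IRF3 caSmad3, 386 in IRF3 HA and 115 in Smad3 caSmad3. H2AJ, H2AZ2 and H3-3A had peaks in both IRF3 lists, and CENPA in IRF3 caSmad3 only. Of 13 histone chaperones, 8 had a peak in IRF3 caSmad3, 8 in IRF3 HA, 4 in Smad3 caSmad3 and 0 in the Smad3 HA lists, to be read against the same shares. NASP, which binds free H3 and H4, had peaks of 378 bases in IRF3 caSmad3, 380 in IRF3 HA and 100 in Smad3 caSmad3, and SUPT16H, a subunit of the FACT complex, had 502 in IRF3 caSmad3, 451 in IRF3 HA and 143 in Smad3 caSmad3. HIRA and RBBP4 had peaks in the same 3 lists, while ASF1A, ASF1B, HAT1 and RBBP7 had IRF3 peaks only. No peak in these lists was wider than 552 bases, less than the 648.5 bases of the median IRF3 caSmad3 peak at the 74 histone genes.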

How the data were processed

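IRF3 and Smad3 binding was measured by ChIP-seq in 5 BT549 libraries, 1 per group. Bowtie2 2.2.2.6, MACS2 2.1.0 and build hg38 are named in the submitters' processing notes. Not given in the sources used here were peak thresholds, control libraries and the placing of multiply mapped reads. For each library, not pooled, the authors deposited a list of peak positions in bases with no other value, so read depth and cell identity could not be examined. Genes and promoters came from RefSeq tables (GRCh38.p14), which have hg38 coordinates. Of the 74 genes, 67 had a promoter entry giving the strand. Peaks were counted within 1 kb of a gene, and peaks overlapped when they shared at least 1 base (Python 3.11.15, pandas 2.3.3, NumPy 2.4.6). Shares have 95% Clopper-Pearson intervals (SciPy 1.17.1) that cover counting error only. No test was made. The scripts were tested on simulated peaks. Named genes were those with a Smad3 peak in HA cells, those with the widest peaks, those in the most lists or in counts of 5 or fewer, and members of 4 gene lists. Alternatives were the peak touching the gene, a 5 kb window, the peak centre near a gene end, the wider 50% of peaks, overlap of 50% of both peaks and, chosen after seeing the data, leaving out near-identical copies. The genes and lists were chosen with earlier results of these data known. A gene that met the rule is counted but not reported by name here.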

Additional observations from a re-analysis of the deposited data

How the results depend on the processing

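The IRF3 counts depended little on the settings. Genes with a peak were 64 to 67 in IRF3 caSmad3, 63 to 67 in IRF3 HA and 54 to 60 in Smad3 caSmad3 when the peak had to touch the gene, lie within 5 kb of it, have its centre within 1 kb of a gene end, or belong to the wider 50% of its list. With the wider 50% of peaks, 17 genes had a Smad3 HA polyI:C peak (32 with all peaks, all protein-coding genes then 0.809%) and 4 a Smad3 HA mock peak (7 with all peaks, 0.24%). Genes with peaks in both lists were then 17 for Smad3 caSmad3 and Smad3 HA polyI:C, 17 for Smad3 and IRF3 in HA cells given polyI:C, and 4 for Smad3 HA polyI:C and mock. The wider 50% of each list held 21 Smad3 HA polyI:C peaks and 2 Smad3 HA mock peaks at histone genes. Of the 21, 20 were overlapped by Smad3 caSmad3 (37 of 37 with all peaks) and 20 by IRF3 HA (36 of 37). Of the 2 mock peaks, 2 were overlapped by Smad3 HA polyI:C (6 of 6 with all peaks). Overlap of 50% of both peaks left 11 of the 37 Smad3 HA polyI:C peaks overlapped by Smad3 caSmad3 and 3 of 37 by IRF3 HA. It left 21 of the 105 Smad3 caSmad3 peaks overlapped by IRF3 caSmad3 and 3 of the 6 Smad3 HA mock peaks by Smad3 HA polyI:C. Peaks of very unequal width cannot meet this rule, and the share of other peaks that met it is not given here. Without the 8 near-identical copies, a choice made after seeing the data, 4 genes had a Smad3 HA mock peak. The other 37 values stayed within 1.5 times. No paired analysis was possible because each group holds 1 library, and for the same reason no replicate could be left out. With positions only, a missing peak may mean too few reads.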

Other observations

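RefSeq lists 19 genes with symbols of the same kind that do not encode protein, as 14 pseudogenes, 3 transcribed pseudogenes and 2 lncRNAs. Of these, 10 had a peak within 1 kb in IRF3 caSmad3, 9 in IRF3 HA, 5 in Smad3 caSmad3, 2 in Smad3 HA polyI:C and 0 in Smad3 HA mock. Nearly all of these peaks also lay within 1 kb of a protein-coding histone gene. The exception was H2BC27P (chromosome 1, 228464170 to 228464575), with a peak of 183 bases in IRF3 caSmad3 and 211 bases in IRF3 HA and no Smad3 peak. The pseudogenes H2AC2P, H2BC2P and H2AC3P, near the testis genes H2AC1 and H2BC1, had none in any list.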
